A study of Rattus norvegicus with 8 samples.

Results

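The genes described here are 35 genes of glycolysis and of the response to low oxygen in the rat, followed in cultured aortic smooth muscle cells. They comprise 17 genes named for steps of the pathway from glucose to lactate, 10 genes of glucose and lactate transport and of the kinases PDK and PFKFB, and 8 genes of oxygen sensing and its targets. Members were found by gene symbol: a probe set had to be annotated to a single member symbol, and where a gene had several, the probe set with the highest mean over all arrays was used. Of the 35 listed genes 34 were found this way, on 57 probe sets, among 11373 genes tested. All 34 passed the filter on dim probe sets, a mean of at least 4.81 on the log2 scale. Pkm, which makes pyruvate kinase, is not reported because its probe set carried a second symbol as well.

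Smooth muscle cells came from thoracic aortas of Sprague-Dawley males and were grown in medium with 10% serum. Every culture was transfected with an siRNA for 48 h and then treated for 3 h, so transfection is common to all groups. The siRNA was either a non-targeting control (siNTC) or one against the rat long noncoding RNA Giver (siGiver). The 3 h treatment was 100 nM angiotensin II (Ang II), a vasoconstrictor peptide hormone, or phosphate-buffered saline (PBS). The 4 groups, siNTC with PBS, siNTC with Ang II, siGiver with PBS and siGiver with Ang II, had 2 arrays each. The sources used here do not say how many siRNA sequences made up siGiver, or whether replicate arrays stem from separate animals or cultures. The p-values thus measure array-to-array spread, part or all of which may be technical.

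Glycolysis turns glucose into pyruvate, which lactate dehydrogenase can reduce to lactate or pyruvate dehydrogenase can pass to the citric acid cycle. Many of its enzymes and transporters, and the kinases that switch pyruvate dehydrogenase off, are transcribed under the hypoxia-inducible factors (HIF). When oxygen is plentiful, prolyl hydroxylases of the EGLN family mark the HIF alpha subunits for destruction, and Egln3 is itself a HIF target. Vascular smooth muscle is known for making much lactate even with oxygen present.

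The promoters printed here belong to the members that stood highest and lowest in siGiver cells, averaged over PBS and Ang II, among those with a promoter window in the RefSeq table used. The higher pair is Hk2 and Slc16a1, and the lower pair is Egln3 and Slc16a3. Each window is from RefSeq, build GRCr8, and runs 5′ to 3′ on the gene's strand from 250 bases before the annotated start to 50 bases after it. Capitals mark the core of the hypoxia response element, ACGTG or GCGTG on either strand, with overlapping matches joined. The windows lie at chr4:116841226-116841525 on the minus strand for Hk2, chr2:194812410-194812709 on the plus strand for Slc16a1, chr6:77410966-77411265 on the minus strand for Egln3 and chr10:106712078-106712377 on the plus strand for Slc16a3.
Hk2: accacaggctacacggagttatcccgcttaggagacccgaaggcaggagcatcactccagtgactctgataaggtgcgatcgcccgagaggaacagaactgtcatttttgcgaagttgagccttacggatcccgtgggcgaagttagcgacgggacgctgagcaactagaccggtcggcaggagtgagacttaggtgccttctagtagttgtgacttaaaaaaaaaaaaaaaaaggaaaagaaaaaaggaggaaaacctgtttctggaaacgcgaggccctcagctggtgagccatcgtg
Slc16a1: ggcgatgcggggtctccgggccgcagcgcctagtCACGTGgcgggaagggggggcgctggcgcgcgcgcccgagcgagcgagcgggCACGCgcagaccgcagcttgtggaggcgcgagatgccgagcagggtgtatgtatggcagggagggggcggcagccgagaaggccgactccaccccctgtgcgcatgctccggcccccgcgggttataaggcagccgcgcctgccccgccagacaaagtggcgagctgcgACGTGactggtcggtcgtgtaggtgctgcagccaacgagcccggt
Egln3: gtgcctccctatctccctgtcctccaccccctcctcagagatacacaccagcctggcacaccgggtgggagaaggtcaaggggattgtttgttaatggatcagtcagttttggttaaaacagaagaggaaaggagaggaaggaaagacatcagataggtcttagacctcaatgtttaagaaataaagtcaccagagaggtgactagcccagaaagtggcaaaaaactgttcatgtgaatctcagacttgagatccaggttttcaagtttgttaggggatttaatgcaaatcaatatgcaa
Slc16a3: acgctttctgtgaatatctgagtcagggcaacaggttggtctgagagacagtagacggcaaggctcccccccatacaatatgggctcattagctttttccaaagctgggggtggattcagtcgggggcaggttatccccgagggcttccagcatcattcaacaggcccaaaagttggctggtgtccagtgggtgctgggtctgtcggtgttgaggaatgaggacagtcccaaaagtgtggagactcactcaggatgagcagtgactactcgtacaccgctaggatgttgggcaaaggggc
The Slc16a1 window held 3 matches, beginning at positions −216, −164 and 5 counted from the start. The first of these is CACGTG, which reads as the core on both strands and is also an E-box, the site of basic helix-loop-helix factors. The windows of Hk2, Egln3 and Slc16a3 held none of these letters. The table held 36 windows for 32 of the 35 listed genes, some with several starts, and none for Slc2a3, Pgk1 or Ndrg1. Of the 36 windows, 23 (63.9%) held at least 1 core, against 13937 of 33469 windows of the same length in the whole table (41.6%). The windows compared were not matched for their share of G and C letters, which ran from 44.7% to 84.7% in member windows. Counted by gene, 22 of the 32 had a core in at least 1 of their windows. No count by gene was made over the whole table, so this number has no share to stand beside. A match is a run of letters and is given as a description only.

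The arrays were alike in scale, with medians of 6.15 to 6.19 on the log2 scale, and replicates correlated at r = 0.998 in every group. No probe set was annotated to Giver, so its level after siGiver was not analysed here. All 8 smooth muscle markers passed the filter, with a mean level over the list of 9.96 in siNTC cells with PBS, 9.91 in siNTC cells with Ang II, 10.2 in siGiver cells with PBS and 10.3 in siGiver cells with Ang II. After siGiver 6 of the 8 markers rose and 1 fell, in PBS (87.5%, against 35.1% of all genes tested) and again with Ang II (87.5% against 44.3%). Ang II called 2 of them lower in siNTC cells (25% against 6.14%) and 2 higher in siGiver cells (25% against 16.3%). None of the 6 annotated endothelial markers passed the filter, and their mean level lay between 3.79 and 3.83 in all groups. Of 7 macrophage and leukocyte markers 3 passed it (Cd14, Cd68 and Lyz2) while Ptprc, Adgre1, Csf1r and Itgam did not, and the mean level of the list was 4.69 to 4.86. Of these 3, Cd14 and Cd68 were lower after siGiver with Ang II (66.7% against 44.3%). All 6 fibroblast markers passed, with list means of 7.48, 7.21, 7.57 and 7.43 in the same order of groups. Ang II called 4 of them lower in siNTC cells (66.7% against 6.14%) and 1 lower in siGiver cells (16.7% against 16.3%), and 3 were higher after siGiver with Ang II (50% against 44.3%). The part of these markers in the results below was not tested, and in these bulk samples fewer cells of a type and less RNA per cell cannot be told apart.

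The first question was how the cells differed after siGiver. In PBS, glucose transporter Slc2a3, Gapdh and lactate transporter Slc16a1 rose 1.4- to 1.6-fold, while Egln3 fell 2.99-fold and the second lactate transporter Slc16a3 fell 1.55-fold. With Ang II the rise of Slc2a3 was 2.34-fold, hexokinase Hk2 rose 3.25-fold and Egln3 fell 2.47-fold. Of the 34 members 16 (47.1%) passed the test in PBS, where 35.1% of all genes tested passed. These were 9 higher, against 16% of all genes, and 7 lower, against 19.1%. With Ang II 19 members (55.9%) passed, against 44.3% of all genes tested, 9 higher (19.5% of all genes) and 10 lower (24.8% of all genes). The median change of the members was 0.030 in PBS and −0.036 with Ang II on the log2 scale, and over all genes it was −0.0047 and −0.026. Members moved in both directions. A call means an adjusted p below 0.05 in limma's moderated test, with Benjamini-Hochberg adjustment over all 11373 genes.

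The same direction was called in PBS and with Ang II for 15 members. Of these, 8 were higher in both comparisons, namely Hk2, Slc2a3, Slc16a1, Gapdh, Pfkfb3, Pfkl, Tpi1 and Hif1a. The 7 that were lower in both were Egln3, Slc16a3, Pdk2, Egln2, Pfkm, Hk1 and Ldha. These are 23.5% and 20.6% of the members, where 11.9% of all genes tested were higher and 13.8% lower in both. No member was called in opposite directions, where 73 of all 11373 genes tested were. Of the 34 members 14 passed in neither comparison, as did 5344 of the 11373 genes. By role, the glycolytic enzymes gave 4 higher and 3 lower of 16 tested in PBS (43.8%, against 35.1% of all genes). The transporters and kinases gave 3 higher and 2 lower of 10 (50%), and the hypoxia genes 2 higher and 2 lower of 8 (50%). With Ang II the same groups gave 4 and 4 (50%), 4 and 3 (70%), and 1 and 3 (50%), against 44.3% of all genes. Averaged over both treatments 21 members (61.8%) passed, against 52.2% of all genes, 11 higher (23.1% of all genes) and 10 lower (29.1% of all genes).

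**Figure D1:**
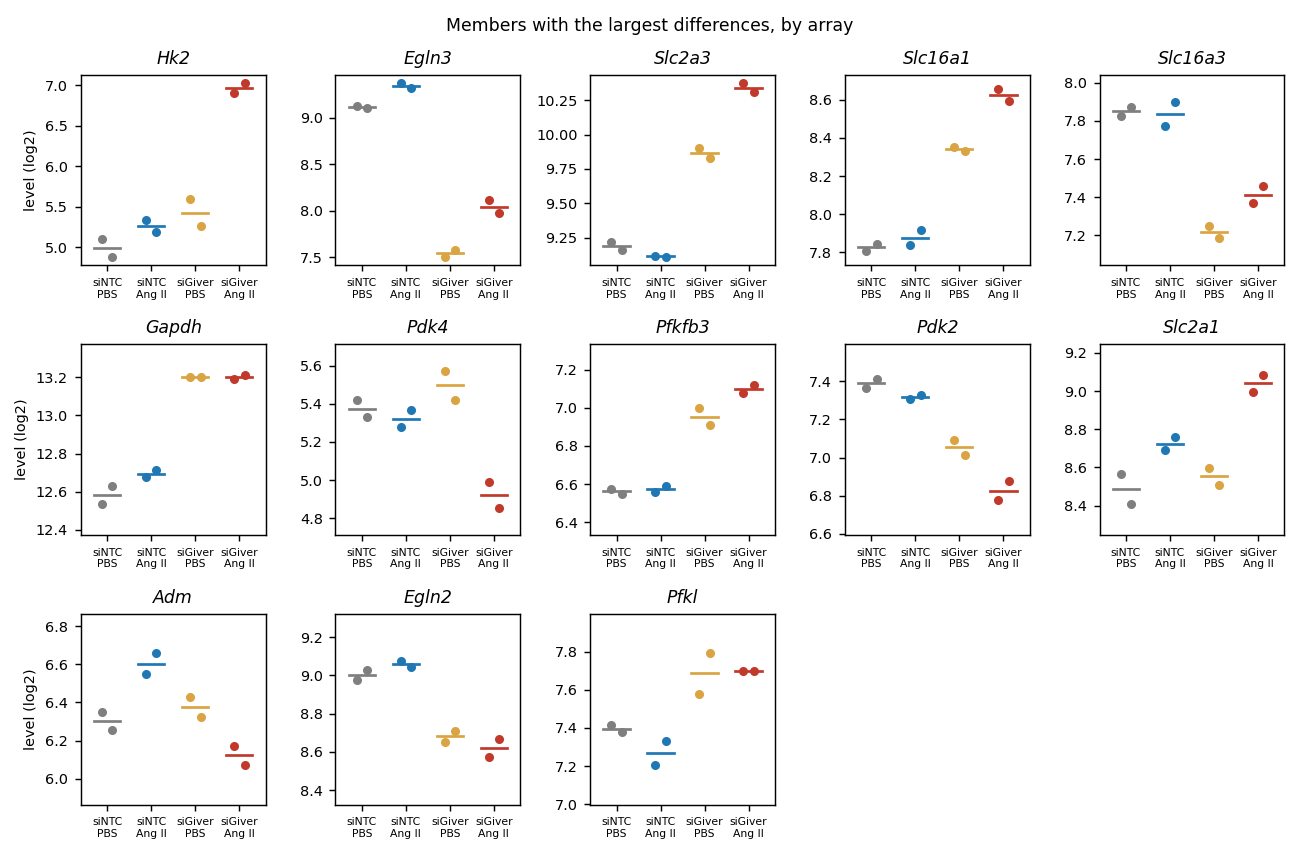
Level on the log2 scale (vertical axis, a range of its own in each panel) of the 13 members that passed a test with a change of at least 0.4, in each of the 4 groups (horizontal axis); points are the 2 arrays of a group and the line is their mean. The siGiver arrays of Slc2a3, Slc16a1, Gapdh, Pfkfb3 and Pfkl lie above the siNTC arrays, those of Egln3, Slc16a3, Pdk2 and Egln2 lie below them, and Hk2 stands at 6.90 and 7.03 in siGiver cells with Ang II.

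Glucose enters smooth muscle through the facilitative transporters of the Slc2a family. Slc2a3, the high-affinity transporter GLUT3, measured 9.22 and 9.16 on the log2 scale in siNTC cells with PBS, 9.12 and 9.11 in siNTC cells with Ang II, 9.90 and 9.83 in siGiver cells with PBS and 10.37 and 10.31 in siGiver cells with Ang II. All 4 siGiver arrays lay above all 4 siNTC arrays, and the siGiver arrays with Ang II lay above those with PBS. The siGiver minus siNTC difference was 0.67 ± 0.050 (SE) in PBS, adjusted p = 9.71e-05, and 1.23 ± 0.050 with Ang II, adjusted p = 7.08e-06. A second, dimmer Slc2a3 probe set gave 0.84 and 1.68. Slc2a1, which encodes the widely expressed GLUT1, measured 8.56 and 8.41 in siNTC cells with PBS, 8.69 and 8.76 in siNTC cells with Ang II, 8.60 and 8.51 in siGiver cells with PBS and 8.996 and 9.09 in siGiver cells with Ang II. Its arrays overlapped between the siRNAs in PBS and did not overlap with Ang II. There it rose by 0.32 ± 0.068, 1.25-fold, adjusted p = 0.00708.

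The monocarboxylate transporters carry lactate and pyruvate across the membrane together with protons. Slc16a1, the transporter MCT1 whose promoter is printed above, measured 7.81 and 7.84 in siNTC cells with PBS, 7.84 and 7.92 in siNTC cells with Ang II, 8.35 and 8.33 in siGiver cells with PBS and 8.65 and 8.59 in siGiver cells with Ang II. Every siGiver array was above every siNTC array. The difference was 0.52 ± 0.049 in PBS, adjusted p = 0.000251, and 0.75 ± 0.049 with Ang II, adjusted p = 3.54e-05. Slc16a3, which encodes MCT4, known as a lactate exporter of glycolytic cells, went the other way. It measured 7.83 and 7.87 in siNTC cells with PBS, 7.77 and 7.90 in siNTC cells with Ang II, 7.25 and 7.19 in siGiver cells with PBS and 7.37 and 7.46 in siGiver cells with Ang II. Here all siGiver arrays lay below all siNTC arrays. Slc16a3 fell by 0.63 ± 0.060 in PBS, adjusted p = 0.000242, and by 0.42 ± 0.060 with Ang II, adjusted p = 0.00101. None of these siRNA calls on transporters was lost when any single array was left out.

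Hexokinase traps glucose in the cell as glucose 6-phosphate. Hk2, the inducible isoform, measured 5.11 and 4.89 in siNTC cells with PBS, 5.34 and 5.19 in siNTC cells with Ang II, 5.60 and 5.26 in siGiver cells with PBS and 6.90 and 7.03 in siGiver cells with Ang II. The arrays of siGiver cells with Ang II stood apart from the other 6, whose values ran from 4.89 to 5.60 and lay near the filter of 4.81. The siRNA difference was 0.43 ± 0.12 in PBS, adjusted p = 0.0283, and 1.70 ± 0.12 with Ang II, adjusted p = 4.84e-05. The PBS call was lost without siNTC PBS replicate 2 (adjusted p = 0.161) and without siGiver PBS replicate 1 (adjusted p = 0.142), while the call with Ang II held without any single array. Hk1, the constitutive isoform, fell by 0.26 ± 0.046 in PBS, adjusted p = 0.00389, and by 0.14 ± 0.046 with Ang II, adjusted p = 0.0379. The fall of Hk1 rested on its brightest probe set. Averaging its probe sets gave −0.05 in PBS (adjusted p = 0.449) and −0.11 with Ang II (adjusted p = 0.0821). The Hk1 call with Ang II was also lost without siNTC Ang II replicate 1 (adjusted p = 0.132) or 2 (0.106) and without siGiver Ang II replicate 1 (0.0911) or 2 (0.154).

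Phosphofructokinase commits the sugar to glycolysis, and its 3 subunit genes differed. Pfkl, the liver-type subunit, measured 7.41 and 7.38 in siNTC cells with PBS, 7.20 and 7.33 in siNTC cells with Ang II, 7.58 and 7.79 in siGiver cells with PBS and 7.70 and 7.70 in siGiver cells with Ang II. All its siGiver arrays were above all its siNTC arrays. Pfkl was higher by 0.29 ± 0.076 in PBS, adjusted p = 0.0208, and by 0.43 ± 0.076 with Ang II, adjusted p = 0.00285. The muscle-type subunit Pfkm fell by 0.24 ± 0.075 in PBS, adjusted p = 0.0432, and by 0.27 ± 0.075 with Ang II, adjusted p = 0.0196. With the mean of the Pfkm probe sets these were −0.09 (adjusted p = 0.272) and −0.17 (adjusted p = 0.0533). The platelet-type subunit Pfkp did not pass in either siRNA comparison. The PBS call of Pfkl was lost without siNTC PBS replicate 1 (adjusted p = 0.0662) or 2 (0.0958) and without siGiver PBS replicate 2 (0.0937). That of Pfkm was lost without siNTC PBS replicate 1 (adjusted p = 0.0654) or 2 (0.197), siGiver PBS replicate 2 (0.208) and either siGiver array with Ang II (0.0611). With Ang II, Pfkm was lost without siNTC Ang II replicate 2 (adjusted p = 0.115) and without siGiver Ang II replicate 1 (0.0859) or 2 (0.0571).

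The PFKFB enzymes make and remove fructose 2,6-bisphosphate, the allosteric activator of phosphofructokinase. Pfkfb3, the isoform that mostly makes it, measured 6.58 and 6.55 in siNTC cells with PBS, 6.56 and 6.59 in siNTC cells with Ang II, 6.996 and 6.91 in siGiver cells with PBS and 7.08 and 7.12 in siGiver cells with Ang II. The siGiver arrays all lay above the siNTC arrays on this probe set. Pfkfb3 was higher by 0.39 ± 0.049 in PBS, adjusted p = 0.000811, and by 0.52 ± 0.049 with Ang II, adjusted p = 0.000147. A second probe set of the gene gave −0.15 and −0.01, and with the mean of the probe sets Pfkfb3 stood at 0.12 in PBS (adjusted p = 0.14) and 0.26 with Ang II (adjusted p = 0.00783). Pfkfb2 and Pfkfb4, the other PFKFB members, passed in none of the comparisons between groups on their brightest probe sets. With every probe set tested, dimmer Pfkfb2 sets above the filter gave −0.35 (adjusted p = 0.057) and 0.31 (0.0274) after siGiver with Ang II.

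**Figure D2:**
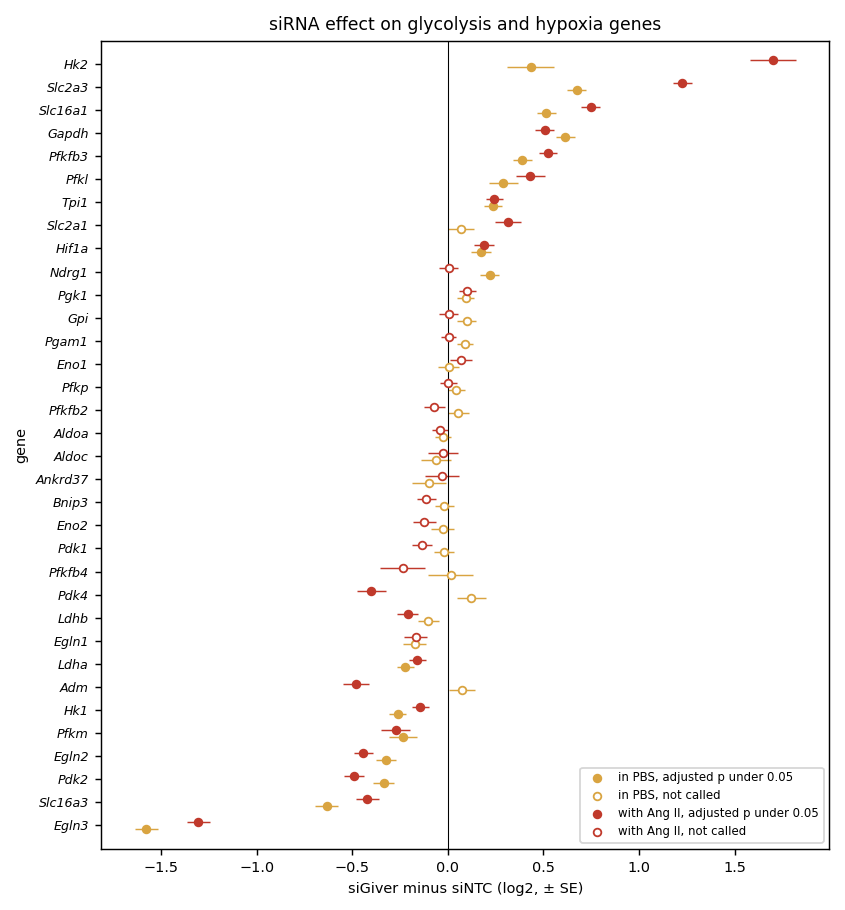
siGiver minus siNTC difference on the log2 scale (horizontal axis) of the 34 members (vertical axis), in PBS and with Ang II; points are the differences of group means, lines are ± 1 SE, and filled points have an adjusted p under 0.05. Hk2 is highest at 1.70 with Ang II and Egln3 lowest at −1.58 in PBS.

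Among the remaining enzymes of the pathway, Gapdh and Tpi1 rose and the rest changed little or fell. Gapdh, which oxidises glyceraldehyde 3-phosphate, measured 12.53 and 12.63 in siNTC cells with PBS, 12.67 and 12.71 in siNTC cells with Ang II, 13.20 and 13.20 in siGiver cells with PBS and 13.19 and 13.21 in siGiver cells with Ang II. Every siGiver array was above every siNTC array. The difference was 0.62 ± 0.049 in PBS, adjusted p = 0.000129, and 0.51 ± 0.049 with Ang II, adjusted p = 0.000173. Gapdh was read here on the manufacturer's control probe sets, which tile the 5′ end, the middle and the 3′ end of the transcript. Their siRNA differences were 0.62, 0.71 and 0.64 in PBS and 0.51, 0.61 and 0.56 with Ang II, in that order. Tpi1, triosephosphate isomerase, measured 11.09 and 11.18, 11.13 and 11.17, 11.37 and 11.37, and 11.39 and 11.39 in the same order of groups. Its difference was 0.23 ± 0.047 in PBS, adjusted p = 0.00682, and 0.24 ± 0.047 with Ang II, adjusted p = 0.00424.

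Lactate dehydrogenase subunit Ldha was slightly lower, measuring 12.16 and 12.20, 12.20 and 12.26, 11.96 and 11.95, and 12.06 and 12.08 in the same order. Its siGiver arrays lay below its siNTC arrays. Ldha fell by 0.22 ± 0.045 in PBS, adjusted p = 0.00703, and by 0.16 ± 0.045 with Ang II, adjusted p = 0.0226. The call with Ang II was lost without siNTC Ang II replicate 2 (adjusted p = 0.124) and without siGiver Ang II replicate 1 (0.103) or 2 (0.0679). Ldhb, the subunit that favours pyruvate formation, fell by 0.21 ± 0.055 with Ang II, adjusted p = 0.0165. It was lost without siNTC Ang II replicate 2 (adjusted p = 0.0965) or siGiver Ang II replicate 1 (0.0814). The isomerase Gpi, the aldolases Aldoa and Aldoc, the mutase Pgam1 and the enolases Eno1 and Eno2 passed in neither siRNA comparison. Aldoa stayed between −0.04 and 0.02 across the 4 comparisons between groups. Pgk1, phosphoglycerate kinase, passed in the average over treatments alone, at 0.10.

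Pyruvate dehydrogenase kinases keep pyruvate out of the citric acid cycle by switching pyruvate dehydrogenase off. Pdk2, the most widely expressed of them, measured 7.36 and 7.41 in siNTC cells with PBS, 7.31 and 7.33 in siNTC cells with Ang II, 7.09 and 7.01 in siGiver cells with PBS and 6.78 and 6.88 in siGiver cells with Ang II. All siGiver arrays were below all siNTC arrays. Pdk2 fell by 0.33 ± 0.054 in PBS, adjusted p = 0.0027, and by 0.49 ± 0.054 with Ang II, adjusted p = 0.000316. With the mean of its probe sets the change with Ang II was −0.30, adjusted p = 0.00929. Pdk4, the kinase raised by fasting and fatty acids, measured 5.42 and 5.33 in siNTC cells with PBS, 5.28 and 5.37 in siNTC cells with Ang II, 5.57 and 5.42 in siGiver cells with PBS and 4.99 and 4.85 in siGiver cells with Ang II. The arrays of siGiver cells with Ang II were the lowest, and those of the other 3 groups lay close together. Pdk4 fell by 0.40 ± 0.075 after siGiver with Ang II, adjusted p = 0.00373. A dimmer Pdk4 probe set gave 0.03 there, and the mean of both gave −0.19 (adjusted p = 0.0138). Pdk1 passed in none of the comparisons between groups.

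Oxygen sensing held the member with the largest siRNA difference in PBS. Egln3, a prolyl hydroxylase, measured 9.13 and 9.11 in siNTC cells with PBS and 9.37 and 9.32 in siNTC cells with Ang II. It measured 7.50 and 7.57 in siGiver cells with PBS and 8.12 and 7.97 in siGiver cells with Ang II. All 4 siGiver arrays lay below all 4 siNTC arrays. Egln3 fell by 1.58 ± 0.060 in PBS, adjusted p = 1.26e-05, and by 1.30 ± 0.060 with Ang II, adjusted p = 1.01e-05. Egln2, another prolyl hydroxylase, measured 8.98 and 9.03, 9.08 and 9.05, 8.65 and 8.71, and 8.57 and 8.67 in the same order of groups. Its siGiver arrays were all below its siNTC arrays, by 0.32 ± 0.051 in PBS, adjusted p = 0.00247, and by 0.44 ± 0.051 with Ang II, adjusted p = 0.000397. Egln1, the main HIF hydroxylase, passed in neither, at −0.17 in both (lowest adjusted p = 0.0528). In the average over treatments Egln1 passed, at −0.17 (adjusted p = 0.0106), on its brightest probe set. A dimmer Egln1 probe set gave 0.18 in PBS and −0.13 with Ang II. With the mean of the probe sets the average was −0.07 (adjusted p = 0.0839).

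Hif1a, the oxygen-labile subunit of the factor itself, measured 10.74 and 10.72, 10.73 and 10.63, 10.87 and 10.94, and 10.89 and 10.84. The siGiver arrays were above the siNTC arrays by a small margin, 0.17 ± 0.052 in PBS, adjusted p = 0.0373, and 0.19 ± 0.052 with Ang II, adjusted p = 0.0209. The PBS call was lost without siNTC PBS replicate 1 (adjusted p = 0.0871) or 2 (0.132), siGiver PBS replicate 1 (0.0625) or 2 (0.164) and either siGiver array with Ang II (0.0536), and with the replicate number as a block (0.0513). With Ang II it was lost without siNTC Ang II replicate 2 (adjusted p = 0.124) and siGiver Ang II replicate 1 (0.106) or 2 (0.0509). The arrays measure Hif1a mRNA, whereas HIF-1 alpha activity is known to be set mainly at the protein.

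The remaining hypoxia genes did not move together. Adm, the vasodilator peptide adrenomedullin, measured 6.35 and 6.25 in siNTC cells with PBS, 6.55 and 6.66 in siNTC cells with Ang II, 6.43 and 6.32 in siGiver cells with PBS and 6.17 and 6.07 in siGiver cells with Ang II. The siRNAs overlapped in PBS, and with Ang II the siGiver arrays lay below the siNTC arrays. Adm fell by 0.48 ± 0.067 there, adjusted p = 0.000917. Ndrg1, a stress-induced gene of growth arrest, measured 9.12 and 9.04, 9.36 and 9.30, 9.29 and 9.32, and 9.33 and 9.34 in the same order. It rose by 0.22 ± 0.049 in PBS, adjusted p = 0.0109, a call lost without siNTC PBS replicate 2 (adjusted p = 0.0589) or siGiver PBS replicate 2 (0.0552). Bnip3, a gene of mitophagy, and Ankrd37, whose function is little known, passed in none of the comparisons between groups.

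The second question was what 3 h of Ang II did in each siRNA arm. In siNTC cells it moved few members: Adm rose 1.23-fold and Pfkp and Ndrg1 1.19-fold. In siGiver cells Hk2 rose 2.90-fold, Egln3 1.42-fold, Slc2a1 1.40-fold and Slc2a3 1.39-fold, while Pdk4 fell 1.49-fold. Of the 34 members 3 (8.82%) passed in siNTC cells, against 6.14% of all genes tested. All 3 were higher, where 3.97% of all genes were higher and 2.17% lower. In siGiver cells 9 members (26.5%) passed, against 16.3% of all genes tested, 6 higher (9.12% of all genes) and 3 lower (7.19% of all genes). With array medians subtracted the siGiver split was 7 higher and 1 lower, and that of all genes moved from 1037 higher and 818 lower to 1164 and 561. Member medians were 0.042 in siNTC and −0.0047 in siGiver cells on the log2 scale, beside 0.0059 and −0.028 over all genes. Averaged over both arms 10 members (29.4%) passed, against 19.6% of all genes, 7 higher (11.1% of all genes) and 3 lower (8.48% of all genes).

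The siNTC calls were close to the threshold. Adm changed by 0.30 ± 0.067, adjusted p = 0.0418, and its siNTC arrays with Ang II, 6.55 and 6.66, were both above those with PBS. Pfkp measured 9.59 and 9.61 with PBS and 9.85 and 9.86 with Ang II, a change of 0.25 ± 0.044, adjusted p = 0.017. Ndrg1 changed by 0.25 ± 0.049, adjusted p = 0.028, from 9.12 and 9.04 to 9.36 and 9.30. The 2 treatments did not overlap for these 3 genes, nor did they for members not called, such as Aldoa (0.02) and Hk1 (0.03). Pfkp was lost without siNTC PBS replicate 1 (adjusted p = 0.0929) or 2 (0.0632) and without siNTC Ang II replicate 1 (0.0777) or 2 (0.106). The call of Ndrg1 was lost whichever of the 8 arrays was left out, with adjusted p from 0.0502 to 0.132, and that of Adm likewise, from 0.0544 to 0.206. With the replicate number as a block Adm also missed the threshold (adjusted p = 0.0595), leaving 2 members, against 4.82% of all genes. With 1 array left out, 0 or 1 of the 34 members passed in siNTC cells, against 2% to 4.62% of all genes.

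**Figure D3:**
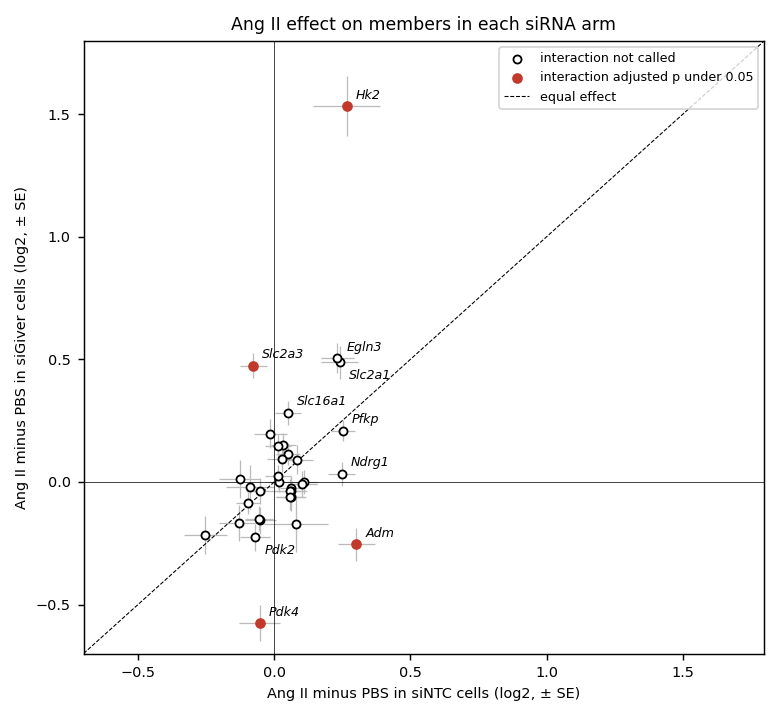
Ang II minus PBS change on the log2 scale of the 34 members in siNTC cells (horizontal axis) and in siGiver cells (vertical axis); lines are ± 1 SE, filled points have an interaction with an adjusted p under 0.05, and the dashed line marks equal changes. Hk2 (0.27 and 1.53), Slc2a3 (−0.08 and 0.47), Adm (0.30 and −0.25) and Pdk4 (−0.05 and −0.58) are the filled points.

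In siGiver cells the Hk2 arrays went from 5.60 and 5.26 with PBS to 6.90 and 7.03 with Ang II, a rise of 1.53 ± 0.12, adjusted p = 0.000216. Slc2a3 rose by 0.47 ± 0.050, adjusted p = 0.000891, and its dimmer probe set by 0.91. Slc2a1 rose by 0.49 ± 0.068, adjusted p = 0.00319, and Egln3 by 0.51 ± 0.060, adjusted p = 0.00157. For each of these genes both Ang II arrays lay above both PBS arrays of the siGiver arm. That also held for members not called, such as Tpi1 (0.02) and Ndrg1 (0.03). The siGiver arrays of Egln3 with Ang II remained below every siNTC array. Slc16a1 rose by 0.28 ± 0.049, adjusted p = 0.00868, a call lost without siGiver Ang II replicate 1 (adjusted p = 0.0552). Pfkp rose by 0.21 ± 0.044, adjusted p = 0.0177, and was lost without siGiver PBS replicate 1 (adjusted p = 0.103) and without siGiver Ang II replicate 1 (0.0835) or 2 (0.0787).

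The members that fell with Ang II in siGiver cells were Pdk4, Pdk2 and Adm. Pdk4 fell by 0.58 ± 0.075, adjusted p = 0.00233, on its brighter probe set. The dimmer set gave 0.05, and the mean of both gave −0.26 (adjusted p = 0.00903). Pdk2 fell by 0.23 ± 0.054, adjusted p = 0.0301, and stood at −0.11 (adjusted p = 0.292) when its probe sets were averaged. It was lost without either siNTC array with Ang II (adjusted p = 0.0502), without siGiver PBS replicate 1 (0.15) or 2 (0.0535) and without siGiver Ang II replicate 1 (0.148). Adm fell by 0.25 ± 0.067, adjusted p = 0.0403. It was lost without either siNTC array with PBS (adjusted p = 0.0516), siGiver PBS replicate 1 (0.185) or 2 (0.0607) and siGiver Ang II replicate 1 (0.0673) or 2 (0.182), and with the replicate number as a block (0.0525).

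Whether the response to Ang II differed between the siRNA arms was tested by the interaction term, which subtracts the Ang II change of siNTC cells from that of siGiver cells. It passed for 4 members (11.8%), against 6.22% of all genes tested, 2 positive (3.35% of all genes) and 2 negative (2.87% of all genes). For Hk2 it was 1.27 ± 0.17, adjusted p = 0.00671, from an Ang II change of 0.27 in siNTC cells (adjusted p = 0.245) and 1.53 in siGiver cells. For Slc2a3 it was 0.55 ± 0.071, adjusted p = 0.00558, from −0.08 (adjusted p = 0.415) and 0.47. These 2 interactions held without any single array. For Adm it was −0.56 ± 0.094, adjusted p = 0.0155, from 0.30 and −0.25, so that the changes had opposite signs. For Pdk4 it was −0.52 ± 0.11, adjusted p = 0.0302, from −0.05 and −0.58, and averaging its probe sets gave −0.21 (adjusted p = 0.118).

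The interaction of Adm was lost without siNTC PBS replicate 2 (adjusted p = 0.0587), siNTC Ang II replicate 2 (0.0566), siGiver PBS replicate 1 (0.0566) and siGiver Ang II replicate 2 (0.0558). That of Pdk4 was lost without siNTC PBS replicate 1 (adjusted p = 0.0681) or 2 (0.0959), siNTC Ang II replicate 1 (0.0652) or 2 (0.102), siGiver PBS replicate 1 (0.0922) and siGiver Ang II replicate 2 (0.09). Other members that passed in the siGiver arm alone were not shown to respond differently. For Egln3 the interaction was 0.27 (adjusted p = 0.11), for Slc2a1 0.25 (adjusted p = 0.18) and for Slc16a1 0.23 (adjusted p = 0.0999). The Ang II changes in siNTC cells were 0.23 for Egln3 (adjusted p = 0.0672) and 0.24 for Slc2a1 (adjusted p = 0.0859), in the direction of the siGiver changes.

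Further genes of the HIF pathway, a list of 32 that includes no member, were set beside the members. Of these 29 were tested, 2 were below the filter and Hif1an had no probe set annotated to it alone. After siGiver 9 rose and 8 fell in PBS (58.6% of those tested, against 35.1% of all genes), and 10 rose and 10 fell with Ang II (69.0% against 44.3%). Plod2, a collagen lysyl hydroxylase, was highest, at 1.09 ± 0.047 in PBS, adjusted p = 1.85e-05, and 1.32 ± 0.047 with Ang II, adjusted p = 4.32e-06. Epas1, which encodes HIF-2 alpha, fell by 0.77 ± 0.047 in PBS, adjusted p = 5.05e-05, and by 0.53 ± 0.047 with Ang II, adjusted p = 0.000114. With the mean of its probe sets Epas1 stood at −0.40 and −0.34. Cited2, a competitor of HIF for its coactivator, rose by 0.46 and 0.54, and the lipoprotein receptor Vldlr by 0.60 and 0.73. Tfrc, the transferrin receptor, rose by 0.24 in PBS and 0.78 with Ang II. Mxi1, a repressor of the MYC network, fell by 0.48 and 1.09.

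**Figure D4:**
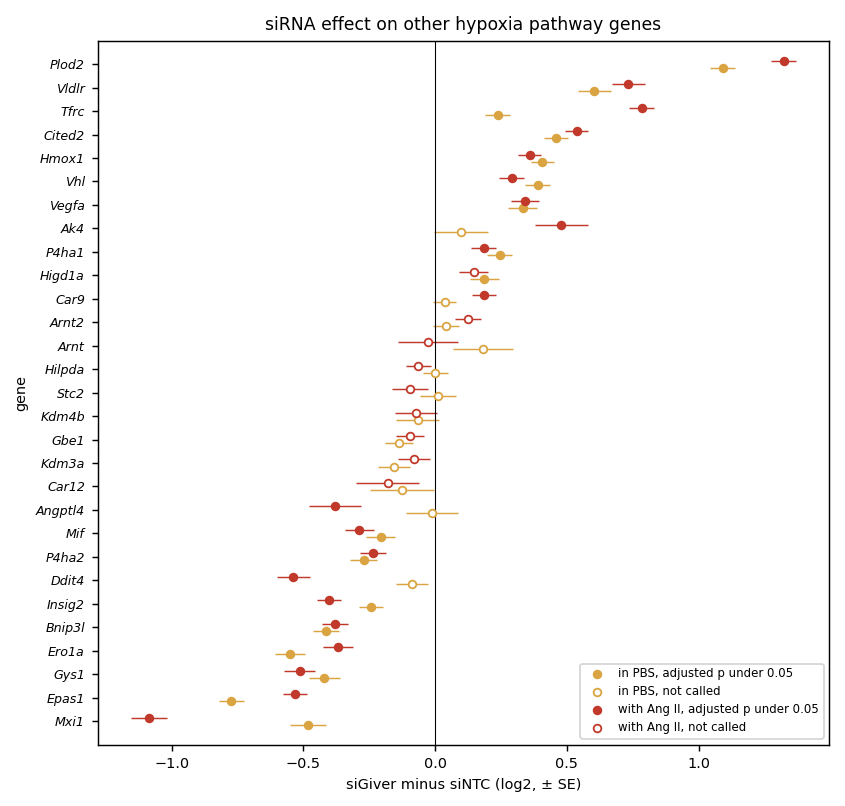
siGiver minus siNTC difference on the log2 scale (horizontal axis) of the 29 further HIF pathway genes tested (vertical axis), in PBS and with Ang II; points are differences of group means, lines are ± 1 SE, and filled points have an adjusted p under 0.05. Plod2 is highest at 1.32 and Mxi1 lowest at −1.09, both with Ang II.

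Ang II called 2 of these 29 genes in siNTC cells, both lower (6.9%, against 6.14% of all genes), and 3 in siGiver cells, 2 higher and 1 lower (10.3% against 16.3%). The siNTC pair was Plod2, at −0.31 (adjusted p = 0.0094), and Vldlr, at −0.30 (adjusted p = 0.0355). Plod2 was lost without siNTC PBS replicate 1 (adjusted p = 0.0605) and without siNTC Ang II replicate 1 (0.0586) or 2 (0.0646). Vldlr was lost whichever array was left out, except siNTC PBS replicate 2, with adjusted p from 0.0538 to 0.176. In siGiver cells Mxi1 fell by 0.66, adjusted p = 0.000799, and by 0.40 with the mean of its probe sets. Tfrc rose there by 0.35, adjusted p = 0.00289. Cited2 rose by 0.22, adjusted p = 0.016, and was lost without siGiver PBS replicate 1 (adjusted p = 0.0808) or 2 (0.0614) and without siGiver Ang II replicate 1 (0.0733) or 2 (0.0756).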

How the data were processed

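RNA was measured on 8 Affymetrix rat arrays, 1 per sample, each hybridised with biotin-labelled target made from 5 ug of total RNA, per the labels' protocols. The deposited table holds log2 expression values of 31099 probe sets, from 2.06 to 14.6. The authors made them with RMA and Partek, per the submitters' processing notes; the sources used here give neither version nor role for them, and no scanner files were used. The number of arrays limits the precision.

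Of the probe sets, 20832 carried a single gene symbol and 436 several, in the platform annotation. For 20764 of those with a single symbol the gene ID was found in RefSeq, and the RefSeq symbol was used. Genes were kept if their brightest probe set had a mean at or above the 30th percentile of all probe sets (4.81). limma 3.58.1 in R 4.3.3 fitted 4 group means to all 8 arrays (4 residual and 3.53 prior degrees of freedom), gave the 4 comparisons between groups, both averages and the interaction, and p-values were adjusted by Benjamini-Hochberg over 11373 genes. The median SE of a comparison between 2 groups was 0.060. The script was checked on simulated data.

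The members, the further gene lists and the cell type markers were chosen with earlier results of these data known. Every member is named; values in every array are given for members called with a log2 change of at least 0.4 in a comparison between groups, and for some others. From each other list the called genes with the smallest p, up to 4 per comparison described, are named; those of the marker lists stand in the closing section.

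Replicates differed by more than identical values would (at most 66 equal probe sets in a group). Same-numbered arrays of different groups had correlations of deviations from −0.174 to 0.0951, so replicate numbers were not taken to pair the samples. The 16 alternatives changed the filter, the use of several probe sets, the normalization, the moderation and the replicate block, or left out 1 array.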

Additional observations from a re-analysis of the deposited data

Results flagged for a closer look

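The Ang II response differed between the siRNA arms, by limma's interaction term with adjustment over all 11373 genes, for 4 members and 7 genes of the further lists and markers. These were 11.8% of the members, against 6.22% of all genes. By list the share was 10.3% for further HIF pathway genes, 6.67% for further glycolysis genes and 4.17% for the citric acid cycle list. It was 33.3% of the 3 macrophage markers tested and 16.7% of the 6 fibroblast markers. No smooth muscle marker or pentose phosphate gene passed. Among the members the term was 1.27 for Hk2, 0.55 for Slc2a3, −0.52 for Pdk4 and −0.56 for Adm, on the log2 scale. Ang II changed Hk2 by 0.27 in siNTC and 1.53 in siGiver cells, Slc2a3 by −0.08 and 0.47, Pdk4 by −0.05 and −0.58 and Adm by 0.30 and −0.25.

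Among further HIF pathway genes the term was −0.60 for Mxi1 (adjusted p = 0.0129), −0.45 for Ddit4, a stress-induced inhibitor of mTOR (adjusted p = 0.0263), and 0.55 for Tfrc (adjusted p = 0.00481). Ang II changed Mxi1 by −0.06 in siNTC and −0.66 in siGiver cells, Ddit4 by 0.26 and −0.19, and Tfrc by −0.20 and 0.35. The term was lost for Mxi1 without siNTC PBS replicate 1 (adjusted p = 0.0569), siNTC Ang II replicate 1 (0.051) or siGiver PBS replicate 1 (0.0509), and stood at −0.30 (0.0715) with the mean of its probe sets. That of Ddit4 was lost whichever array was left out, except siNTC PBS replicate 2 and siGiver Ang II replicate 2 (adjusted p = 0.0672 to 0.0892). That of Tfrc was kept in all 16 alternatives.

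The regulators of pyruvate dehydrogenase Pdk3, a kinase, and Pdp1, a phosphatase, gave −0.33 (adjusted p = 0.0486) and 0.38 (adjusted p = 0.0293). Pdk3 changed by 0.28 in siNTC and −0.05 in siGiver cells, and Pdp1 by 0.01 and 0.39. Pdk3 was lost whichever array was left out (adjusted p = 0.0575 to 0.143), and Pdp1 whichever array was left out, except siGiver PBS replicate 2 (0.0654 to 0.0971).

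Of the cell type markers, Cd14 of macrophages gave −0.40 (adjusted p = 0.0222), from 0.22 in siNTC and −0.18 in siGiver cells, and Dcn of fibroblasts 0.39 (adjusted p = 0.0234), from −0.42 and −0.03. Cd14 was lost whichever array was left out, except siNTC PBS replicate 2 and siNTC Ang II replicate 2 (adjusted p = 0.0524 to 0.0817), and Dcn likewise, except siNTC PBS replicate 2 and siGiver PBS replicate 1 (0.0692 to 0.0814). With 2 arrays a group, no group was large enough to test for a single array standing apart.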

How the results depend on the processing

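With 2 arrays a group, calls near the threshold depended on single arrays, and leaving 1 out assumes that the lone array of its group varies like the others. Of 82 member calls over the 7 comparisons, 53 were kept in all 16 alternatives, 29 were lost in at least 1, and 18 of these also outside the left-out arrays; no called member changed sign. Among the other genes Higd1a, called higher by 0.19 after siGiver in PBS and by 0.17 on average, stood at −0.12 and −0.072 with the mean of its probe sets. With trended and robust moderation the members called by Ang II were 8 in siNTC cells, 15 in siGiver cells and 17 on average, in place of 3, 9 and 10, while the share of all genes called went from 6.14% to 13.2%, from 16.3% to 24.6% and from 19.6% to 26.9%. For Ang II in siNTC cells limma called 1 member without the filter (2.95% of all genes) and 5 with the filter at the 50th percentile (11.6% of all genes). The interaction was called for 2 members with that filter (11.5% of all genes), which left 30 members and not Hk2 or Pdk4. With any 1 array left out, Ang II in siNTC cells called 0 to 1 members (5 to 7 at an unadjusted p under 0.05) and 2% to 4.62% of all genes, Ang II in siGiver cells 5 to 9 members and 7.61% to 15.3%, its average 7 to 8 and 11.5% to 15%, and the interaction 2 to 4 and 3.13% to 3.83%. The lowest siGiver count, 5, came without siGiver Ang II replicate 1. The interaction count was 2 without siNTC PBS replicate 2, siNTC Ang II replicate 2, siGiver PBS replicate 1 or siGiver Ang II replicate 2. The siRNA comparisons called 11 to 16 members and 24.4% to 33.3% of all genes in PBS, 14 to 20 and 34.8% to 44.2% with Ang II, and 19 to 22 and 46.5% to 48.1% on average. With the replicate number as a block, 6 member calls were lost and 0 gained. Ang II then called 2 members in siNTC and 8 in siGiver cells, against 4.82% and 14.1% of all genes. The siRNA comparisons called 14 members in PBS and 18 with Ang II, against 33.4% and 43.6% of all genes. The siRNA and Ang II averages called 21 and 9 members, against 51.1% and 17.4%, and the interaction 4, against 4.86%. Not every array correlated best with its own number, and the numbers were not shown to pair samples. Causes of these differences were not tested.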

Other observations

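Beside glycolysis, the pentose phosphate pathway, which makes NADPH and ribose from glucose 6-phosphate, was measured through 7 of 8 listed genes. After siGiver 3 rose and 1 fell in PBS (57.1%, against 35.1% of all genes), and 3 rose and 1 fell with Ang II (57.1% against 44.3%). The gene that fell was not the same: Rpia in PBS and Taldo1 with Ang II. H6pd, the hexose 6-phosphate dehydrogenase of the endoplasmic reticulum, rose by 0.77 in PBS (adjusted p = 0.000193) and 0.54 with Ang II (adjusted p = 0.000573). Rpe, ribulose-phosphate epimerase, rose by 0.55 (adjusted p = 0.000618) and 0.58 (adjusted p = 0.000309). Tkt, transketolase, rose by 0.24 (adjusted p = 0.00573) and 0.19 (adjusted p = 0.0123), the latter lost without siNTC Ang II replicate 1 (adjusted p = 0.0768) or siGiver Ang II replicate 1 (0.0617). Rpia, ribose-phosphate isomerase, stood at −0.22 in PBS (adjusted p = 0.0172) and at −0.08 (adjusted p = 0.251) with the mean of its probe sets. It was lost without siNTC PBS replicate 2 (adjusted p = 0.0812) or siGiver PBS replicate 1 (0.0995). Taldo1, transaldolase, fell by 0.18 with Ang II (adjusted p = 0.0204) and was lost without siNTC Ang II replicate 1 (adjusted p = 0.0626) or 2 (0.0911) or siGiver Ang II replicate 1 (0.106).

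Of 27 listed genes of pyruvate dehydrogenase and the citric acid cycle 24 were tested. After siGiver 2 rose and 5 fell in PBS (29.2%, against 35.1% of all genes), and 5 rose and 8 fell with Ang II (54.2% against 44.3%). Citrate synthase, Cs, which joins acetyl-CoA to oxaloacetate, rose by 0.81 in PBS (adjusted p = 4.21e-05) and by 0.97 with Ang II (adjusted p = 1.01e-05). The succinate dehydrogenase subunits Sdhb and Sdhd fell by 0.24 and 0.21 in PBS (adjusted p = 0.00743 and 0.00732), and by 0.42 and 0.34 with Ang II (adjusted p = 0.00038 and 0.000582). With the mean of its probe sets Sdhd stood at −0.14 in PBS (adjusted p = 0.0419). Idh3a, a subunit of isocitrate dehydrogenase, fell by 0.26 in PBS (adjusted p = 0.0112), lost without siNTC PBS replicate 2 (adjusted p = 0.0555) or siGiver PBS replicate 1 (0.0549). Pdp1, the phosphatase that switches pyruvate dehydrogenase on, rose by 0.39 with Ang II after siGiver (adjusted p = 0.000981).

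A further 24 genes of glycolysis and sugar handling, of which 15 were tested, gave 1 higher and 2 lower in PBS (20%, against 35.1% of all genes) and 2 higher and 4 lower with Ang II (40% against 44.3%). The PBS calls were Pdk3 at 0.20 (adjusted p = 0.0261), the glucose transporter Slc2a8 at −0.23 (adjusted p = 0.0312) and Bpgm, the bisphosphoglycerate mutase, at −0.15 (adjusted p = 0.0386). Pdk3 was lost without either PBS array of either siRNA (adjusted p = 0.0795 to 0.0948), and Bpgm whichever array was left out except the siNTC arrays with Ang II (0.0608 to 0.171). Slc2a8 was lost without siNTC PBS replicate 1 (adjusted p = 0.121) or 2 (0.0862) or siGiver PBS replicate 2 (0.138).

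With Ang II, Bpgm fell by 0.38 (adjusted p = 0.00053). The monocarboxylate transporter Slc16a7 stood at 0.28 (adjusted p = 0.011), lost without siNTC Ang II replicate 2 (adjusted p = 0.0647) or siGiver Ang II replicate 2 (0.06). Slc2a8 stood at −0.27 (adjusted p = 0.0133), lost without siNTC Ang II replicate 1 (adjusted p = 0.0701) or siGiver Ang II replicate 1 (0.0508) or 2 (0.0579). Pgam5, a mitochondrial phosphatase, stood at 0.19 (adjusted p = 0.016), lost without siNTC Ang II replicate 1 (adjusted p = 0.0957) or siGiver Ang II replicate 1 (0.0806) or 2 (0.0509).

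Among the smooth muscle markers the smallest p after siGiver in PBS belonged to Myh11 at 0.59, Cnn1 at 0.54, Myocd at 0.54 and Lmod1 at 0.49 (adjusted p = 9.5e-05 to 0.000422). With Ang II it was Myh11 at 0.83, Cnn1 at 0.76, Lmod1 at 0.59 and Smtn at 0.68 (adjusted p = 1.46e-05 to 0.000211). With Ang II, Myh11 stood at −0.29 (adjusted p = 0.00992) and Acta2 at −0.19 (adjusted p = 0.0467) in siNTC cells, and Smtn at 0.36 (adjusted p = 0.0119) and Cnn1 at 0.22 (adjusted p = 0.0212) in siGiver cells. The call was lost for Acta2 whichever array was left out (adjusted p = 0.0751 to 0.224), and for Myh11 without siNTC PBS replicate 1 (0.0655) or siNTC Ang II replicate 1 (0.0683) or 2 (0.0527). It was lost for Smtn without siGiver PBS replicate 2 (adjusted p = 0.0597) or siGiver Ang II replicate 2 (0.0655), and for Cnn1 without siGiver PBS replicate 1 (0.114) or siGiver Ang II replicate 1 (0.0908) or 2 (0.0874).

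Among the fibroblast markers Ang II lowered Dcn (−0.42), Pdgfra (−0.38), Scara5 (−0.39) and Lum (−0.25) in siNTC cells and Pdgfra (−0.48) in siGiver cells, and siGiver with Ang II raised Dcn (0.50), Scara5 (0.43) and Lum (0.20). The macrophage markers Cd14 and Cd68 stood at −0.45 and −0.60 after siGiver with Ang II. In siNTC cells Scara5 was lost without siNTC PBS replicate 1 (adjusted p = 0.14) or 2 (0.0612) or siNTC Ang II replicate 1 (0.0998), and Lum on leaving out any siNTC array or any siGiver array with PBS (0.0633 to 0.179). After siGiver with Ang II, Lum was lost without siNTC Ang II replicate 1 (adjusted p = 0.0711) or 2 (0.0737) or siGiver Ang II replicate 1 (0.117). Cd68 was lost whichever array was left out, except siNTC Ang II replicate 1 and siGiver Ang II replicate 2 (adjusted p = 0.0505 to 0.18), and stood at −0.27 without siGiver Ang II replicate 1.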
